A study of Bos taurus with 2 samples.

Results

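Genes for the aminoacyl-tRNA synthetases were compared between a CDKN1C-siRNA-injected and a Sham-injected pool of Bos taurus embryos, 1 pool of each, produced by in vitro fertilization. The sham embryos were punctured with the needle but received no siRNA, and the injected embryos received siRNA against CDKN1C, a cell-cycle inhibitor gene. RNA of each pool was amplified before sequencing. The labels give no number of embryos, embryo sex or day for the sequenced pools, and the other controls of the study, uninjected embryos and embryos given siRNA against GFP, were not analysed here. Members were taken by gene symbol alone: the synthetases whose symbol is an amino acid letter followed by ARS or ARS2, FARSA and FARSB, and the scaffold proteins AIMP1, AIMP2 and EEF1E1. This gave 34 of 21209 gene symbols, namely 18 cytosolic enzymes, 13 mitochondrial enzymes with symbols ending in 2, and 3 scaffold proteins. EPRS, EARS2, IARS2 and VARS2, which the same pattern or list would take, were not analysed here, and CARS and CARS2 lie outside the symbol pattern and were kept apart.

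Aminoacyl-tRNA synthetases join each amino acid to its tRNA, which makes them the step at which the genetic code is read into protein. Cytosol and mitochondria mostly use separate enzymes, each encoded in the nucleus, although GARS and KARS serve both compartments from a single gene. In mammals several cytosolic enzymes sit in a multisynthetase complex held together by AIMP1, AIMP2 and EEF1E1. Uncharged tRNA is sensed by the kinase GCN2, the product of EIF2AK4, and the transcription factor ATF4 downstream of it is known to raise several cytosolic synthetase genes.

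There was 1 library per pool and therefore no replicate, no error and no test of any difference between the pools. Levels are in FPKM, fragment counts set relative to transcript length and, here, to the upper quartile of each library, and the depth behind them is unknown. With 1 FPKM added to both values, the log2 ratio of injected to sham is called the difference here, and it was read for the 7984 genes whose mean over the pools reached 1 FPKM. On this scale low genes differ by less than their ratio, and single fold values below are ratios of FPKM. The targeted gene CDKN1C was 14.6 FPKM in injected and 49.5 FPKM in sham embryos, 3.40-fold lower, and 213 of the 7984 genes were as low or lower. Of the reference genes that the paper tried for qRT-PCR, GAPDH was 3.24-fold and RPLP0 3.12-fold lower in the injected pool. ACTB was 1.32-fold higher. The size of the CDKN1C difference is therefore not particular to that gene. Of all 7984 genes, 58.3% were lower in the injected pool, with a median log2 difference of -0.17, and the marker counts below stand beside these values. Of 11 trophectoderm markers whose mean reached 1 FPKM, 6 were lower and 5 higher in the injected pool, with KRT8 lowest at 1610.5 against 5760 FPKM and IFNT2 highest at 135 against 31.1 FPKM. Of 9 epiblast markers 7 were lower and 2 higher, with a median log2 difference of -0.63, from POU5F1 at 56.3 against 170.1 FPKM to DPPA4 at 4.44 against 3.01 FPKM. Of 7 hypoblast markers 4 were lower and 3 higher, with a median of -0.17. Of 16 cumulus and granulosa markers, 5 had a mean reaching 1 FPKM, 4 of them lower and 1 higher. Their list had a summed level of 17.5 FPKM in injected and 31.4 FPKM in sham embryos, HSD3B1 was 3.29 against 15.7 FPKM, and AMH, FOXL2, PTX3 and NR5A1 were listed at 0 in both. Of 15 fibroblast and mesenchyme markers, 4 had such a mean and all 4 were higher in the injected pool, with a median log2 difference of 1.41. VIM was 18.5 against 1.46 FPKM and LUM 4.77 against 0.138 FPKM, while SPARC, at 49.97 against 49.8 FPKM, made up most of the summed level of 76.5 against 53.0 FPKM. LUM reached that mean through the injected pool alone, so the count and the median rest in part on the filter. Among markers below 1 FPKM in both pools, TWIST1, THY1, PDGFRB and COL6A3 were lower in the injected pool. TWIST2, DCN, COL3A1, FBN1 and POSTN were higher there. COL1A1 and COL5A1 were listed at 0 in both pools. The part of these cell types in the results was not tested, and in pools of whole embryos fewer cells of a type and less RNA per cell cannot be told apart.

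Most synthetase genes were lower in the injected pool, and 31 of the 34 members had a mean reaching 1 FPKM. Of these 31, 24 were lower and 7 higher in the injected pool, where 58.3% of all 7984 genes were lower. By a difference of at least 2-fold, 7 members were lower (FARSA, SARS, SARS2, AARS2, QARS, AARS and VARS) and 1 was higher (TARS). The 7 are 22.6% of the 31 members, and over all genes 15.7% were lower and 4.92% higher by this measure. On the log2 scale the members had a median of -0.38 and all genes one of -0.17. No member differed by 4-fold on this scale.

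The scaling of the pools moved these counts. The summed FPKM of all loci was 1.32-fold higher in the sham pool, and with the same total in each pool the median log2 difference of all genes went from -0.17 to 0.155. The members then stood at 17 lower and 14 higher, with 41.95% of all genes lower. At least 2-fold lower were 4 of them (FARSA, SARS, SARS2 and AARS2) and at least 2-fold higher were 2 (TARS and NARS), against 7.48% and 11.9% of all genes. With the median difference of all genes set to 0, the members were 22 lower and 9 higher, where 50% of all genes are lower by construction. At least 2-fold lower were then 5 members and at least 2-fold higher 1, against 11.05% and 7.7% of all genes. The sign was the same under these 3 scalings (as deposited, the same total, and the median at 0) for 24 members, 17 of them lower and 7 higher, and it was not for GARS, HARS, RARS, HARS2, TARS2, AIMP1 and EEF1E1.

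**Figure D1:**
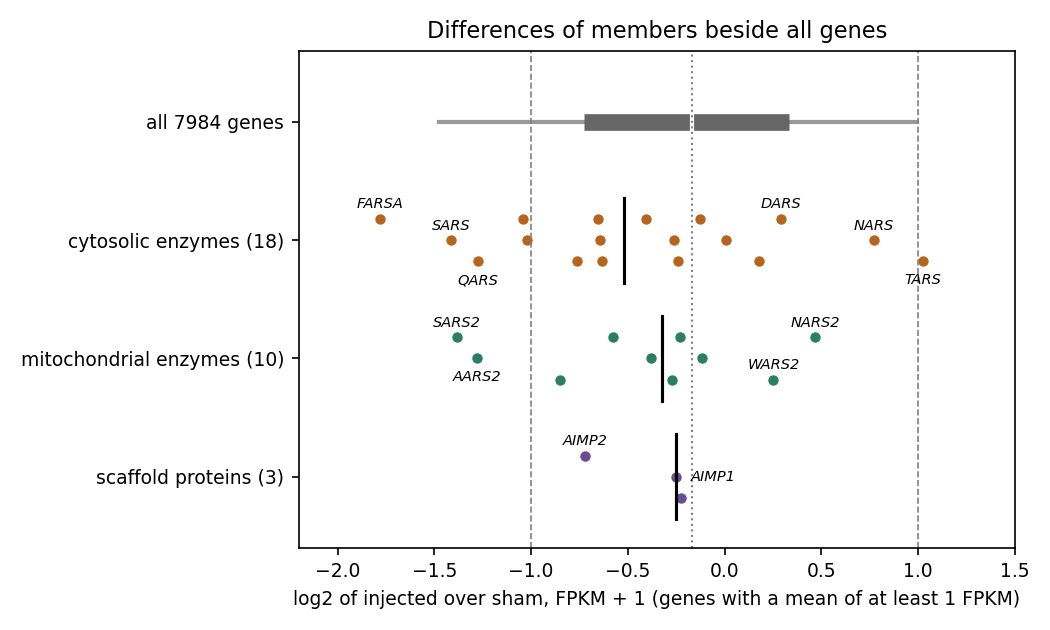
Difference between the pools on the log2 scale after adding 1 FPKM (horizontal) for the 18 cytosolic enzymes, the 10 mitochondrial enzymes and the 3 scaffold proteins whose mean reached 1 FPKM, 1 library per pool. Points are genes and black bars medians, the top row gives the central 50% (thick) and 90% (thin) of all 7984 genes with their median (dotted line), and dashed lines mark 2-fold; FARSA lies lowest at -1.78 and TARS highest at 1.03.

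Levels of the cytosolic enzymes spanned a wide range, with KARS, the lysine enzyme, highest and IARS, the isoleucine enzyme, lowest in the sham pool. KARS was 85.9 FPKM in injected and 134 FPKM in sham embryos. IARS was 1.95 FPKM in injected and 1.60 FPKM in sham embryos. After KARS, the highest means were those of QARS and GARS, and before IARS the lowest were those of LARS and WARS. The order of levels was much the same in both pools, with a Spearman correlation of 0.94 across the 34 members, which are genes and not replicates. The summed FPKM of the 18 cytosolic enzymes was 328 in the injected pool and 469 in the sham pool, which is 0.0312% and 0.0339% of all FPKM in each pool.

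**Figure D2:**
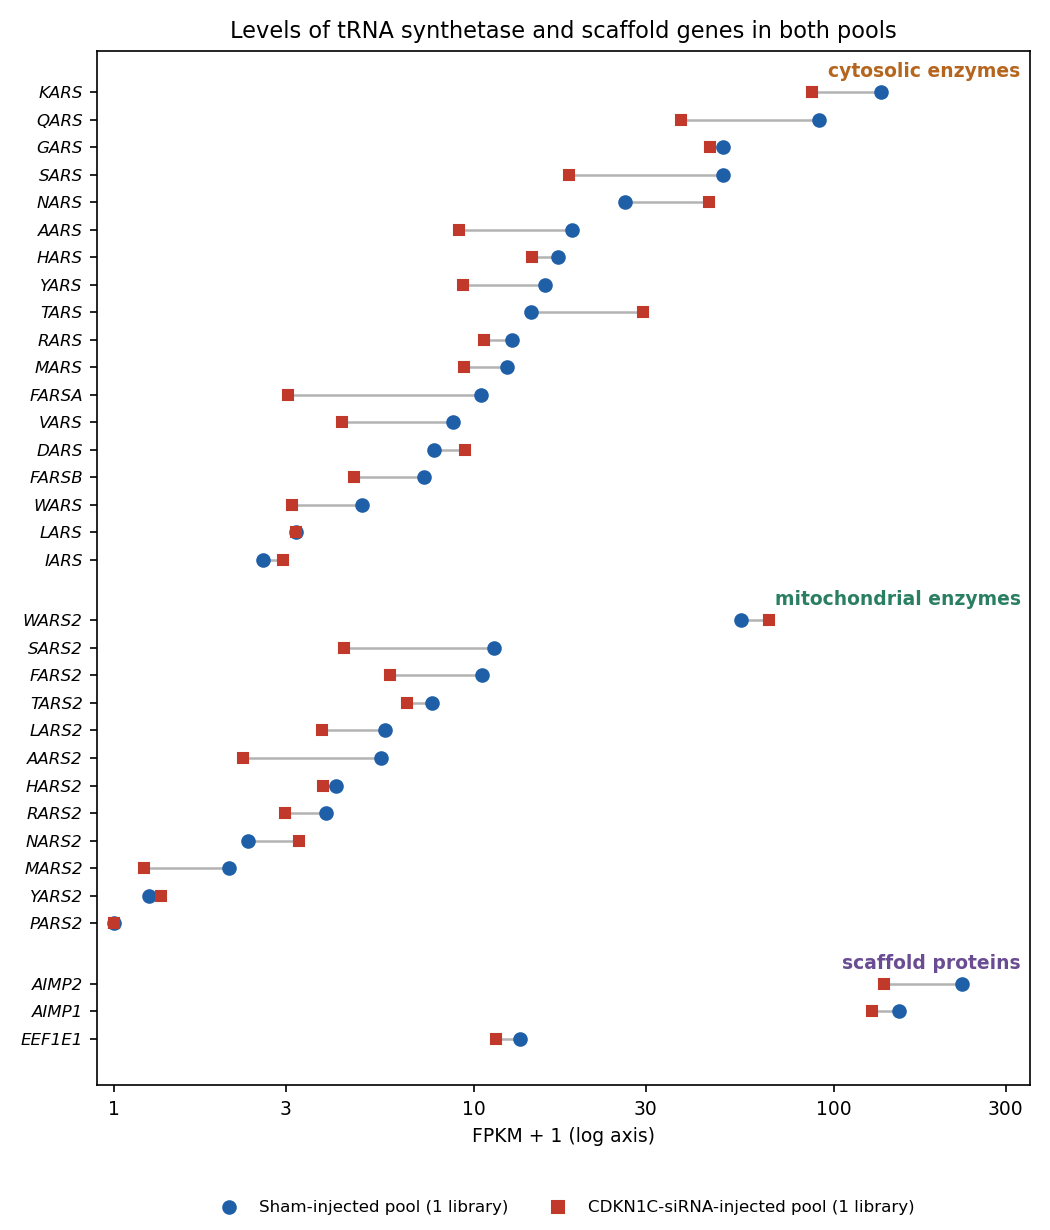
FPKM + 1 of 33 members (horizontal, log axis) for Sham-injected (blue circles) and CDKN1C-siRNA-injected (red squares) embryos, with 1 library per pool, ordered by sham level within each group. Red squares lie to the left of the blue circles for most genes and clearly to the right for NARS and TARS; PARS2 is at 0 in both pools.

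FARSA, which encodes the alpha subunit of the phenylalanine enzyme, had the lowest difference of all members. It lies on chromosome 7 of bosTau7, the build of the deposited values, from 10894134 to 10904236. It was 2.04 FPKM in injected and 9.45 FPKM in sham embryos, 4.62-fold lower, with a log2 difference of -1.78. Of the 7984 genes, 166 were as low or lower. FARSB, listed for the beta subunit that pairs with it, was 3.63 FPKM in injected and 6.29 FPKM in sham embryos, 1.73-fold lower. The locus of FARSB spans 1908 bases on chromosome 6, while RefSeq places a gene of that name on another chromosome of the assembly ARS-UCD2.0, so that its identity as the working gene is uncertain.

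SARS, the serine enzyme, on chromosome 3 from 36648345 to 36668143, was 17.4 FPKM in injected and 48.1 FPKM in sham embryos. It was 2.76-fold lower, and 485 of the 7984 genes were as low or lower. QARS, the glutamine enzyme, on chromosome 22 from 51661635 to 51669044, was 36.5 FPKM in injected and 89.9 FPKM in sham embryos. In FPKM this gap of QARS was the largest among the enzymes, and the ratio was 2.46-fold. AARS, the alanine enzyme, was 8.10 FPKM in injected and 17.7 FPKM in sham embryos. VARS, the valine enzyme, was 3.32 against 7.76 FPKM. AARS and VARS lay just past 2-fold, with log2 differences of -1.04 and -1.02, and both were within 2-fold after the median of all genes was set to 0, at -0.87 and -0.86.

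Another group of cytosolic enzymes was lower in the injected pool by less than 2-fold under each scaling. YARS, the tyrosine enzyme, was 8.33 FPKM in injected and 14.8 FPKM in sham embryos, and KARS was 1.56-fold lower. MARS, which charges methionine and so also serves the first step of translation, was 8.37 FPKM in injected and 11.4 FPKM in sham embryos. WARS, the tryptophan enzyme, is known as an interferon-induced synthetase. It was 2.13 FPKM in injected and 3.88 FPKM in sham embryos, whereas IFI6, an interferon-stimulated gene, was 337 against 4.22 FPKM. WARS was therefore lower in the pool in which IFI6 was 79.9-fold higher.

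TARS and NARS stood apart from the other cytosolic enzymes by being clearly higher in the injected pool. TARS, the threonine enzyme, on chromosome 20 from 42645969 to 42669416, was 28.4 FPKM in injected and 13.5 FPKM in sham embryos. It was 2.11-fold higher, with a log2 difference of 1.03, and 367 of the 7984 genes were as high or higher. NARS, the asparagine enzyme, on chromosome 24 from 58696475 to 58713193, was 43.9 FPKM in injected and 25.3 FPKM in sham embryos, 1.74-fold higher. In the sham pool NARS was below SARS, QARS and GARS, and in the injected pool it was above SARS and QARS and close to GARS. Both stayed higher under all 3 scalings and after a fit on locus length, at 0.94 for TARS and 0.81 for NARS.

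Other cytosolic enzymes differed little between the pools. DARS, the aspartate enzyme, was 8.45 FPKM in injected and 6.73 FPKM in sham embryos, and LARS, the leucine enzyme, was 2.21 against 2.20 FPKM. IARS, LARS and DARS were higher by log2 differences of 0.18, 0.0068 and 0.29, and all 3 had the opposite sign after a fit on locus length, at -0.13, -0.30 and -0.0065. GARS, the glycine enzyme, was 44.2 FPKM in injected and 48.4 FPKM in sham embryos. HARS, the histidine enzyme, was 13.5 against 16.1 FPKM, and RARS, the arginine enzyme, was 9.65 against 11.8 FPKM. GARS, HARS and RARS were lower as deposited and higher with equal total FPKM in both pools, by 0.26, 0.13 and 0.10 on the log2 scale, and GARS was also higher, by 0.041, with the median of all genes set to 0.

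The multisynthetase complex has 7 enzymes among the members (DARS, IARS, KARS, LARS, MARS, QARS and RARS), and of these 4 were lower and 3 higher in the injected pool. QARS was the sole one past 2-fold. Their median log2 difference was -0.26, while the 11 cytosolic enzymes outside the complex had a median of -0.65, with 9 lower, 4 of them at least 2-fold, and 2 higher. Lower by any amount were thus 57.1% of the enzymes in the complex, near the 58.3% of all genes, and 81.8% of those outside it. At least 2-fold lower were 14.3% of the enzymes in the complex and 36.4% of those outside it, beside 15.7% of all genes. The contrast in the share lower by any amount did not hold after the fit on locus length. DARS, IARS and LARS then had log2 differences of -0.0065, -0.13 and -0.30, so that all 7 enzymes of the complex were lower. Outside it TARS and NARS stayed higher, and 60.3% of all genes were lower after that fit. No test separates these small groups. In summed FPKM the order was the other way, at 153 in the injected pool and 258 in the sham pool for the 7 enzymes of the complex, a log2 ratio of -0.75, and 175 against 211 for the others, a log2 ratio of -0.27. QARS and KARS together hold most of the first sum.

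Of the scaffold proteins, AIMP1 and AIMP2 had levels above every enzyme in the sham pool. AIMP2 was 136 FPKM in injected and 225 FPKM in sham embryos, 1.65-fold lower. AIMP1, which also gives rise to a secreted cytokine, was 127 FPKM in injected and 151 FPKM in sham embryos. EEF1E1, the third scaffold, was 10.5 against 12.5 FPKM. AIMP1 and EEF1E1 were lower as deposited by log2 differences of -0.25 and -0.22, and both were higher by 0.14 with equal total FPKM in both pools, while AIMP2 was lower under each scaling. EEF1E1 was thus about as abundant as the median enzyme of the complex, and AIMP1 and AIMP2 were more than 10 times its level in both pools.

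Mitochondrial enzymes had low levels with 1 exception. WARS2, the mitochondrial tryptophan enzyme, on chromosome 3 from 25821804 to 25918025, was 64.9 FPKM in injected and 54.3 FPKM in sham embryos. The other 12 mitochondrial enzymes ranged from 0 to 5.54 FPKM in injected and from 0 to 10.4 FPKM in sham embryos. WARS2 therefore held most of the summed mitochondrial level, which was 92.1 against 101 FPKM with it and 27.2 against 46.9 FPKM without it. Its difference of 0.25 on the log2 scale was higher under all 3 scalings and -0.052 after the fit on locus length.

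Of the 10 mitochondrial enzymes whose mean reached 1 FPKM, 8 were lower and 2 higher in the injected pool, and 2 were at least 2-fold lower. These 20% are near the 15.7% of all genes, and the 8 lower are 80% beside 58.3%. SARS2, the serine enzyme, on chromosome 18 from 48072274 to 48081313, was 3.37 FPKM in injected and 10.4 FPKM in sham embryos, 3.09-fold lower. AARS2, the alanine enzyme, on chromosome 23 from 18297298 to 18308283, was 1.28 FPKM in injected and 4.53 FPKM in sham embryos, 3.54-fold lower. Both stayed at least 2-fold lower under the 3 scalings, at log2 differences of -1.05 for SARS2 and -1.01 for AARS2 with the same total in each pool. FARS2, the phenylalanine enzyme, came next, just short of 2-fold, at 4.87 FPKM in injected and 9.56 FPKM in sham embryos.

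Smaller differences were seen for other mitochondrial enzymes. LARS2 was 2.80 FPKM in injected and 4.67 FPKM in sham embryos, and RARS2 was 1.98 against 2.88 FPKM. Both were lower under each scaling. TARS2 was 5.54 against 6.68 FPKM and HARS2 2.81 against 3.14 FPKM, and both were higher with the same total in each pool, by 0.11 and 0.18 on the log2 scale, and HARS2 also with the median set to 0, by 0.047. NARS2, the asparagine enzyme, was higher in the injected pool, at 2.26 FPKM against 1.36 FPKM in sham embryos. Below the mean of 1 FPKM, MARS2 was 0.216 FPKM in injected and 1.09 FPKM in sham embryos, YARS2 was 0.3498 against 0.253 FPKM, and PARS2 was listed at 0 in both.

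For 12 amino acids both a cytosolic and a mitochondrial gene were measured, and for 10 of them both means were at least 1 FPKM. The cytosolic gene had the higher level in 9 of the 12 pairs in either pool. It was the lower one for tryptophan and leucine in both pools and for phenylalanine, where FARSA and FARS2 were 9.45 and 9.56 FPKM in sham embryos and 2.04 and 4.87 FPKM in injected embryos. In 5 of the 10 pairs both genes were lower in the injected pool (alanine, histidine, phenylalanine, arginine and serine) and in 1, asparagine, both were higher. Serine gave the closest match, with log2 differences of -1.41 for SARS and -1.38 for SARS2. Threonine gave the widest gap, with 1.03 for TARS and -0.23 for TARS2, and the ratio of TARS to TARS2 was 5.13 in the injected pool and 2.02 in the sham pool. With the same total in each pool the signs of HARS, RARS, HARS2 and TARS2 turned, as given above.

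**Figure D3:**
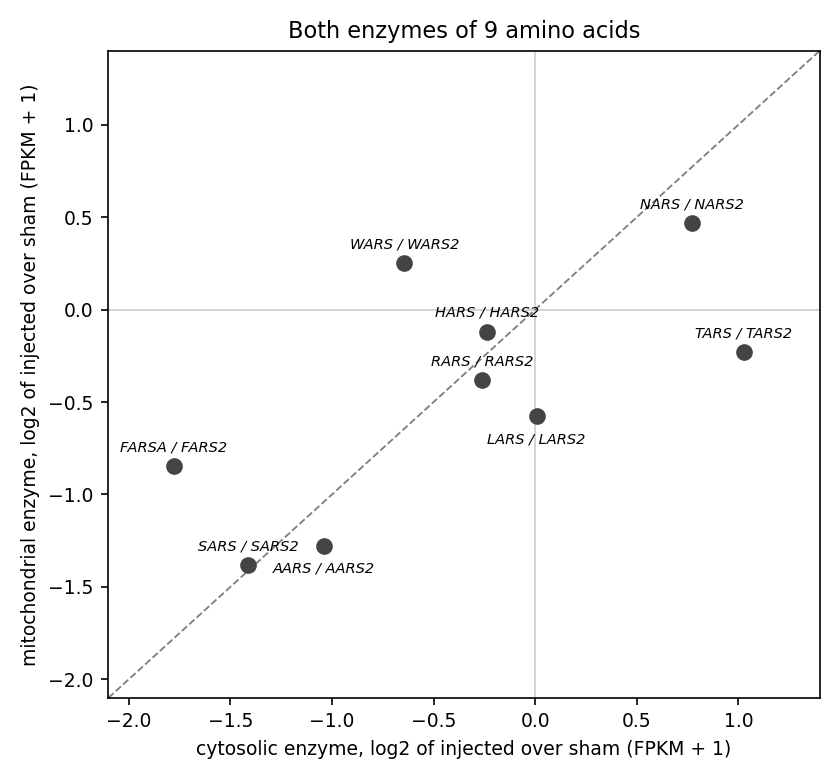
Difference between the pools on the log2 scale after adding 1 FPKM for the cytosolic enzyme (horizontal) and the mitochondrial enzyme (vertical) of 9 amino acids with both means at least 1 FPKM, 1 library per pool. The dashed line marks equal differences; SARS and SARS2 lie on it at the lower left, NARS and NARS2 are the pair with both genes higher, and TARS and TARS2 lie farthest to its right.

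The 2 structural classes of synthetase, which differ in the fold of their catalytic domain, both held lower and higher genes. Of 11 class I enzymes whose mean reached 1 FPKM, 8 were lower, 2 of them at least 2-fold (QARS and VARS), and the differences ran from -1.28 to 0.25 with a median of -0.40. Of 17 class II enzymes, 13 were lower, 5 of them at least 2-fold (FARSA, SARS, SARS2, AARS2 and AARS), and the differences ran from -1.78 to 1.03 with a median of -0.27. The shares lower by any amount were 72.7% in class I and 76.5% in class II, beside 58.3% of all genes. The shares at least 2-fold lower were 18.2% in class I, near the 15.7% of all genes, and 29.4% in class II. The highest difference, that of TARS, and the lowest, that of FARSA, are both from class II.

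Members in short loci were lower than members in long loci, as were genes at large. At or below the median locus length of the 31 members, 22.9 kb, 15 of 16 members were lower and 7 were at least 2-fold lower, with a median log2 difference of -0.65. Above it, 9 of 15 were lower and 0 were at least 2-fold lower, with a median of -0.25. Over all genes, those at or below 22.9 kb had a median of -0.38 with 22.4% at least 2-fold lower, and those above it had a median of 0.072 with 7.48% at least 2-fold lower. The Spearman correlation of the difference with locus length was 0.39 across the 31 members and 0.29 across all 7984 genes. NARS, at 16719 bases, was the member in a short locus that was higher in the injected pool. The split by length was chosen after the values were seen, and its part in the differences was not tested beyond the fit on length, after which 27 members were lower and 4 higher. Again 7 were at least 2-fold lower, but with FARS2 in at -1.06 and VARS out at -0.88. After the same fit 60.3% of all genes were lower and 14.17% at least 2-fold lower.

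**Figure D4:**
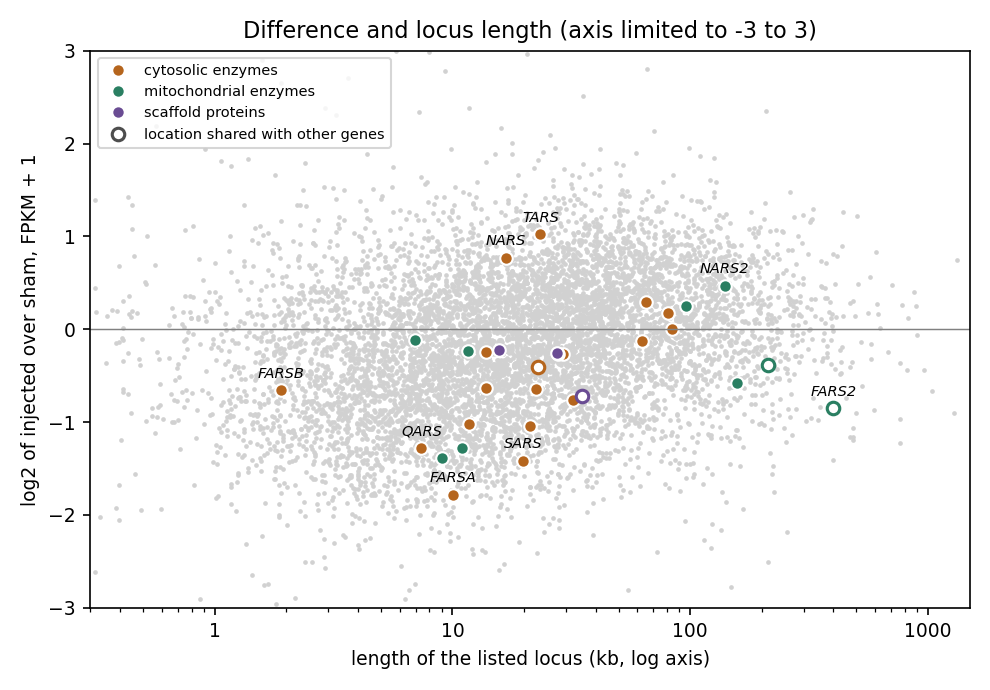
Difference between the pools on the log2 scale after adding 1 FPKM (vertical) against the length of the listed locus (horizontal, kb, log axis), 1 library per pool. Grey points are all genes whose mean reached 1 FPKM and within the axis, filled coloured points are members, and open points are members whose listed location is shared with other genes; the members at least 2-fold lower all lie at 22.9 kb or less.

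Some listed locations hold more than 1 gene, so that their length is not that of the synthetase. MARS shared its location on chromosome 5, from 60130359 to 60153281, with DDIT3, the stress transcription factor CHOP, which was 43.5 FPKM in injected and 49.0 FPKM in sham embryos. AIMP2 shared its location with EIF2AK1, a kinase of the stress response, at 0.869 against 1.14 FPKM. FARS2 shared its location with LYRM4, RARS2 with ORC3 and AKIRIN2, and YARS2 with DNM1L. How reads were divided between genes in a shared location is not given in the sources used here, so the values of these 5 members are less certain.

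Other synthetase genes had a close neighbour. HARS and HARS2 lie side by side on chromosome 7, from 51075995 to 51089830 and from 51089991 to 51096974, with 160 bases between them, and their log2 differences were -0.24 and -0.12. SARS2 lies 197 bases from MRPS12, a mitochondrial ribosomal protein gene, which was 34.5 FPKM in injected and 82.4 FPKM in sham embryos. The log2 differences of SARS2 and MRPS12 were -1.38 and -1.23. KARS lies 135 bases from TERF2IP, a telomere protein gene. KARS and TERF2IP had log2 differences of -0.64 and -0.21. YARS lies between S100PBP, at 0.868 against 0.723 FPKM, and KIAA1522, at 4.22 against 7.53 FPKM. The log2 differences of these neighbours were 0.12 and -0.71, beside -0.76 for YARS. S100PBP, the one of the opposite sign, was below 1 FPKM in both pools. MRPS12, TERF2IP and KIAA1522 were lower in the injected pool, as were the members beside them.

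Other genes of tRNA charging and use went both ways. Among relatives outside the symbol pattern, CARS, the cytosolic cysteine enzyme, was 11.9 FPKM in injected and 25.6 FPKM in sham embryos, and CARS2, its mitochondrial counterpart, was 2.39 against 4.71 FPKM. DTD1, which removes wrongly charged D-amino acids, was 28.8 against 65.0 FPKM, and AARSD1, an editing protein related to the alanine enzyme, was 109 against 203 FPKM over its loci. MTFMT, which formylates the mitochondrial initiator tRNA, was 4.48 against 2.996 FPKM. Of 11 such genes whose mean reached 1 FPKM, 6 were lower, 2 of them at least 2-fold, and 5 were higher, with a median log2 difference of -0.40. Their 54.5% lower and 18.2% at least 2-fold lower are near the 58.3% and 15.7% of all genes.

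Elongation factors that bring charged tRNA to the ribosome were among the most abundant genes of this group. EEF1D and EEF1G, subunits of the exchange factor, were 1269 FPKM in injected embryos against 2553 FPKM in sham embryos and 593 against 1133 FPKM, while EEF1A1, the carrier of charged tRNA, was 327 against 333 FPKM. The list also holds VARS, EEF2 and EIF5A, which do not bring charged tRNA to the ribosome. Of its 7 genes whose mean reached 1 FPKM, 5 were lower and 2 higher, EEF2 and EIF5A, and the median was -0.63. Lower were 71.4% of them, and 2 genes (VARS and EEF1D) were at least 2-fold lower, where 58.3% and 15.7% of all genes were. Mitochondrial translation factors had a median of 0.34 over 9 genes, with 3 lower (33.3%) and 6 higher. TUFM, the mitochondrial counterpart of EEF1A1, was 45.5 FPKM in injected and 164 FPKM in sham embryos, whereas the release factor gene MTRF1L was 22.0 against 10.5 FPKM.

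Genes that cut, modify or export tRNA had a median of -0.29 over 28 genes, and a difference of at least 2-fold was seen in 7, 6 of them lower. These 6 are 21.4% of the list, beside 15.7% of all genes at least 2-fold lower, and 4.92% of all genes were at least 2-fold higher. The highest was XPOT, which exports tRNA from the nucleus, at 10.1 FPKM in injected and 4.33 FPKM in sham embryos, followed by SSB, the La protein that binds new tRNA, at 26.1 against 14.0 FPKM. Lowest was TSEN34, at 13.2 against 48.5 FPKM. Next came QTRT1, which inserts queuine into tRNA, at 0.249 against 2.99 FPKM, and POP7, a subunit of ribonuclease P, at 182 against 406 FPKM. QTRT1 reached the mean of 1 FPKM through the sham pool alone.

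Among targets of the integrated stress response, the pathway that ATF4 drives, more genes were lower than higher in the injected pool. Of 21 whose mean reached 1 FPKM, 17 were lower and 4 higher, with 6 past 2-fold, 5 of them lower, and the median log2 difference was -0.31. Lower were 81.0% of the list and at least 2-fold lower 23.8%, beside 58.3% and 15.7% of all genes, and no test separates the list from all genes. The 17 include SLC1A5, PSAT1, CHAC1 and PSPH, at log2 differences of -0.061, -0.010, -0.0092 and -0.0086. These lie above the median of all genes, -0.17, and turn higher once that median is set to 0. This list and the others were counted as deposited only. PYCR1, of proline synthesis, was 1.63 FPKM in injected and 7.03 FPKM in sham embryos, PHGDH, of serine synthesis, was 6.53 against 21.2 FPKM, and NUPR1, a stress regulator, was 72.6 against 203 FPKM. Highest in the list were XPOT, the tRNA exporter named above, DDIT4 and ALDH18A1, with log2 differences of 1.06, 0.46 and 0.36. ASNS, asparagine synthetase, was 5.46 against 16.6 FPKM, opposite in direction to NARS, and ATF4 itself was 144 against 207 FPKM. Among its upstream genes, EIF2AK4 was 3.08 against 3.53 FPKM, EIF2B4, a subunit of the exchange factor of eIF2, was 12.2 against 32.7 FPKM, and EIF2S3, a subunit of eIF2, was 59.3 against 14.0 FPKM. The median of 12 such upstream genes was -0.28, with 66.7% lower. ASNS, ATF4, EIF2AK4, CARS2, SLC1A5, PSAT1, CHAC1 and PSPH lie outside the rule for named genes and were chosen after their values were seen.

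**Figure D5:**
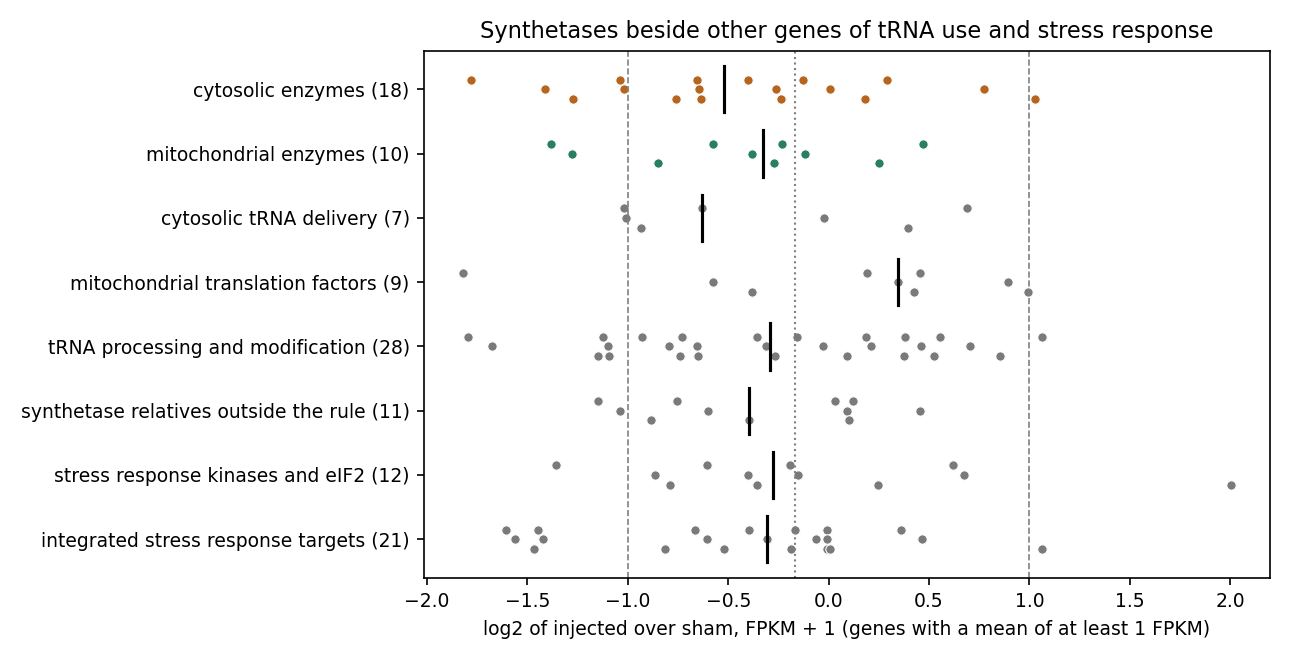
Difference between the pools on the log2 scale after adding 1 FPKM (horizontal) for the cytosolic and mitochondrial enzymes and for 6 lists of related genes, with the number of genes whose mean reached 1 FPKM in brackets and 1 library per pool. Points are genes, black bars medians, the dotted line is the median of all genes and dashed lines mark 2-fold; the mitochondrial translation factors are the list with a median above 0, at 0.34.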

How the data were processed

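RNA-Seq values were available for 1 pool of CDKN1C-siRNA-injected and 1 pool of Sham-injected embryos. The authors mapped reads to bosTau7 with TopHat and estimated FPKM with Cufflinks 2.0.2, upper-quartile normalized and corrected for sequence bias, and these FPKM values were used as deposited. The gene annotation and the read depth are not given in the sources used here. Each pool lists 22220 loci. FPKM was summed per symbol, leaving out 615 loci with none, and each member had 1 locus. The difference was log2 of injected over sham with a pseudocount of 1 FPKM, where the mean of both pools reached 1 FPKM. The calculation was tested on simulated data. With 1 library per group no statistical test was run. The values of 1 member are not reported here, although it is kept in the counts, sums and medians. The other members were named, and of each other list the 3 highest and 3 lowest differences could be named. Outside this rule, ASNS, ATF4, EIF2AK4, CARS2, SLC1A5, PSAT1, CHAC1 and PSPH were named after their values were seen. So were markers listed at 0 or with a mean below 1 FPKM. DDIT3 and EIF2AK1 were named as genes that share the location of a member, and GAPDH, RPLP0 and ACTB as reference genes. The members and lists were chosen with earlier results of these data known. RefSeq names of the assembly ARS-UCD2.0 matched 33 members. Alternatives were other pseudocounts, filters, scalings and folds, the highest locus in place of the sum, and a fit by loess (span 0.3) against log10 locus length. Python 3.11.15, pandas 2.3.3, NumPy 2.4.6, SciPy 1.17.1, statsmodels 0.14.6 and matplotlib 3.10.9 were used.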

Additional observations from a re-analysis of the deposited data

How the results depend on the processing

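Counts were taken as unchanged within 1.5 times, and median log2 differences and log2 ratios of sums within 0.1. By that rule 31 values were unchanged, 26 moved and 3 changed sign over 14 alternatives, of which those with CARS and CARS2 added or with members left out were chosen after seeing the data.

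The 7 members at least 2-fold lower became 3 with a pseudocount of 5 FPKM, 4 when both pools had the same total FPKM, 0 at 4-fold and 13 at 1.5-fold. The 1 member at least 2-fold higher became 0 with a pseudocount of 5 FPKM, after the fit on locus length and at 4-fold, and 2 with the same total and at 1.5-fold. The median of the cytosolic enzymes, -0.52, was -0.31 with a pseudocount of 5 FPKM, -0.35 with the median of all genes set to 0, -0.14 with the same total, -0.64 with CARS added or without the member in a shared location, and -0.40 without FARSB. That of the mitochondrial enzymes, -0.33, was -0.45 and -0.16 with pseudocounts of 0.1 and 5 FPKM, -0.54 at a mean of at least 5 FPKM, -0.16 with the median set to 0, -0.053 with the same total and -0.53 after the fit on length. The median of the 10 members of the multisynthetase complex, -0.26, was -0.090 with the median set to 0, -0.40 after the fit on length and 0.12, of opposite sign, with the same total. The log2 ratio of summed cytosolic FPKM, -0.51, was -0.35 with the median set to 0 and -0.12 with the same total. That of summed mitochondrial FPKM, -0.14, was 0.031 and 0.26, of opposite sign, under these scalings and -0.78 without WARS2. Beyond what the construction of each alternative gives, the cause was not tested. Unknown depth leaves the precision of low values such as MARS2 and YARS2 unknown, and single libraries leave the spread between embryo pools unknown.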
